A study of Homo sapiens with 9 samples.

Results

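The 10 genes described here encode the secreted TGF-β ligands (TGFB1, TGFB2 and TGFB3), the signalling receptors (TGFBR1 and TGFBR2), the co-receptors (TGFBR3 and ENG) and the latent TGF-β binding proteins LTBP1, LTBP2 and LTBP3. They are taken from the tables by gene symbol and make up 10 of the 20777 genes listed in the tables. All 10 genes passed the filter on low counts and were among the 13384 genes tested.

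RNA of LX-2 cells was sequenced in 3 groups of 3 libraries. LX-2, an established human line that derives from the stellate cells of the liver, is labelled wild type. The control group, which the study names as such, carries no treatment label, the TGF-β group received TGF-β, and the TGF-β + uridine group received both agents. Both treatments are labelled as day 1, and in the cell culture methods TGF-β was given at 25 ng/ml for 12 h, after which the medium was changed to one with uridine. The dose of uridine is not given in the labels. All cells were grown in DMEM with fetal bovine serum. Nothing in the labels says that libraries of a group came from separate cultures, so p-values measure only the spread between these libraries.

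TGF-β is secreted in a latent form, in which the mature dimer is held by its own cleaved propeptide and, in most cells, is disulphide-linked to a latent TGF-β binding protein that anchors it in the extracellular matrix. Once released, the ligand binds the type II receptor, which recruits and phosphorylates the type I receptor, and SMAD2 and SMAD3 carry the signal to the nucleus. In liver, stellate cells respond to this ligand by taking on a myofibroblast phenotype and laying down matrix. The transcripts counted here are the cells' own and do not include the ligand added to the medium.

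Total counts were 40539751 to 41467124 per library, and a gene without reads could have had up to 3 counts, or 0.0723 to 0.0740 CPM by library total. In all other values CPM stands for counts scaled to a common library size after TMM normalisation, whose factors ran from 0.820 to 1.16. Libraries differed in how strongly counts followed the GC content of the transcript: the slope of log2 CPM on GC was 13.8, 7.44 and 4.08 per unit GC in control replicates 1, 2 and 3, 7.85 to 8.72 in the TGF-β group and 5.49 to 10.5 in the TGF-β + uridine group. Control replicate 1 had the steepest slope and control replicate 3 the shallowest. Of the markers of stellate cells and fibroblasts, VIM stood at 438 to 852 FPKM. COL1A1 (7.34 to 12.7 FPKM), PDGFRB (1.91 to 5.21), DES (6.40 to 9.29) and ACTA2 (4.28 to 18.9) were also detected in every library. COL3A1, LUM, DCN and RGS5 reached at most 0.454, 0.154, 0.292 and 0.186 FPKM in any library. COL1A2 and HAND2 had at most 1 count and LRAT was not listed. The 4 of 7 hepatocyte markers and 4 of 7 endothelial markers that are listed summed to at most 0.289 and 0.441 FPKM in any library. Of the macrophage and leukocyte markers, CD14, ADGRE1 and LYZ had at most 12 reads, CD68 stood at 16.8 to 22.7 FPKM, and CSF1R rose 4.11-fold with TGF-β (edgeR adjusted p = 4.05e-04); its part in the results was not tested. Among epithelial and biliary markers KRT7 reached 595 to 1178 FPKM, whereas the others were low. KRT19 stood at 0.625 to 1.15 FPKM, CDH1 and SOX9 reached at most 0.182 and 0.360 FPKM, and EPCAM had at most 5 reads.

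Levels of different genes were compared as FPKM, which divide each count by the library total and by a fixed gene length. TGFB1 was the most abundant gene, with a mean of 77.6 FPKM over the 9 libraries, and stood above ENG (25.7 FPKM) in 9 of 9 libraries. ENG in turn stood above LTBP3 (6.01 FPKM) in 9 of 9 libraries. LTBP3 was above TGFBR2 (3.61 FPKM) in 8 of 9, and TGFBR2 above LTBP1 (2.99 FPKM) in 7 of 9. The place of LTBP2 (1.38 FPKM) differed by group: TGFB3 (1.58 FPKM) and TGFBR3 (0.819 FPKM) were above it in the 3 control libraries and below it in the 6 treated libraries. TGFBR3 was above TGFBR1 (0.505 FPKM) in 6 of 9 libraries. TGFBR1, the type I receptor, was above TGFB2 (0.0653 FPKM) in 9 of 9 libraries. Among the genes tested, mean FPKM placed TGFB1 at percentile 93.3, TGFBR2 at percentile 55.7, TGFBR1 at percentile 26.2 and TGFB2 at percentile 4.14.

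In the TGF-β group relative to the control group, LTBP2 rose, and it was the only one of the 10 genes called by edgeR's quasi-likelihood test at a Benjamini-Hochberg adjusted p under 0.05 (1 of 10, beside 3.38% of all genes tested). The other 9 genes gave log2 fold changes between −1.25 (TGFBR3) and 0.92 (TGFB2) that did not pass the test. The median log2 fold change of the 10 genes was 0.07, against −0.05 for all genes tested. CPM values of the 2 groups did not overlap for 1 of the 10 genes, again LTBP2, beside 17.7% of all genes tested.

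**Figure D1:**
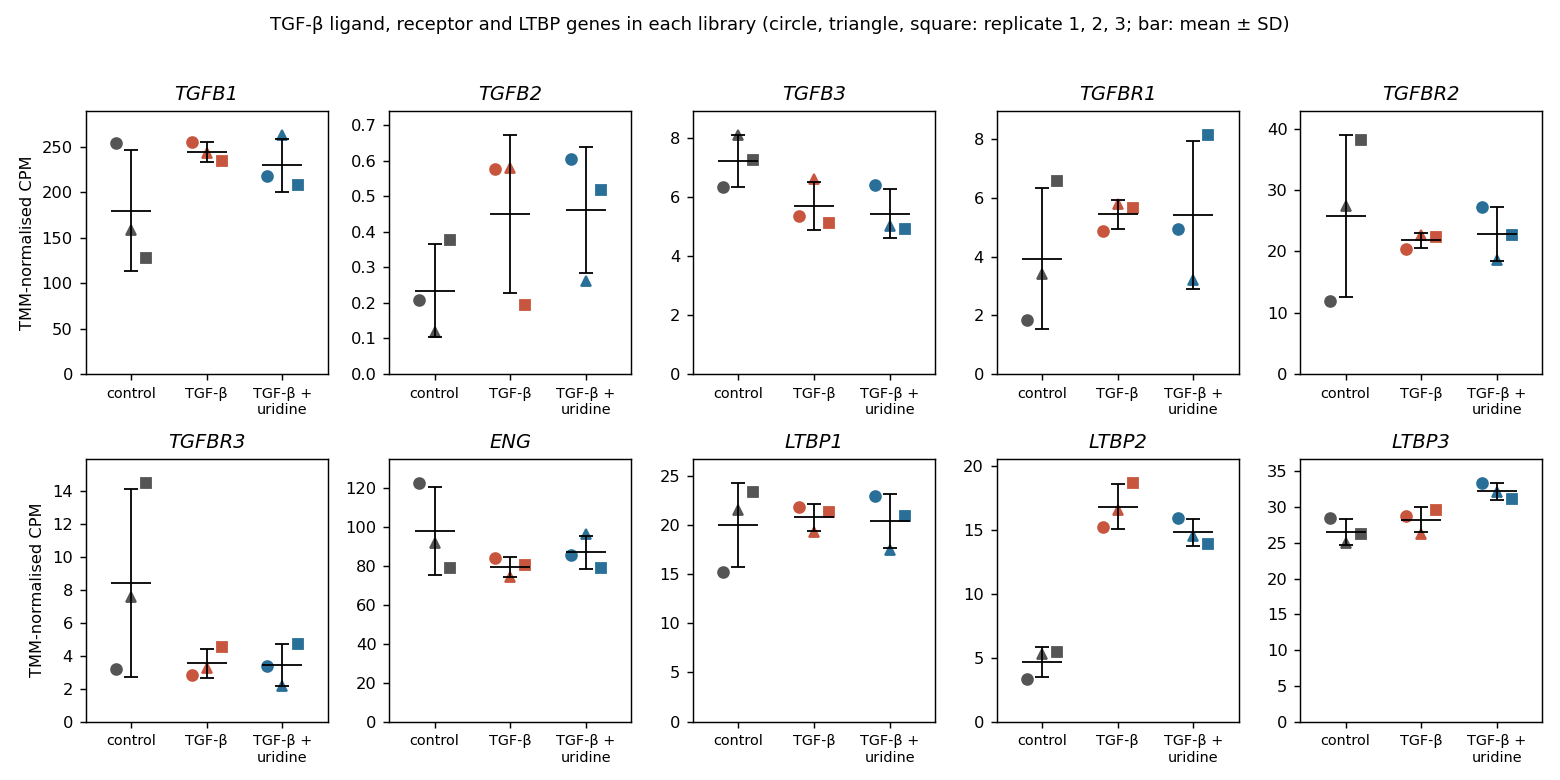
TMM-normalised CPM of each of the 10 genes in each library, by group, on linear axes that start at 0; points are libraries and bars give the mean ± SD of 3 libraries. LTBP2 lies at 3.32 to 5.45 CPM in the control group and at 13.9 to 18.7 CPM in the 6 libraries that received TGF-β, while the other 9 genes overlap between the control and TGF-β groups.

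Among the ligands, TGFB1 encodes the main isoform of fibrotic liver. It had 255, 158 and 127 CPM in control replicates 1, 2 and 3, 256, 243 and 234 CPM in the TGF-β group and 218, 263 and 209 CPM in the TGF-β + uridine group. Control replicate 1 lay within the range of the treated libraries and the other two control libraries lay below all 6 of them. The TGF-β group was 1.36-fold higher than control (log2 fold change 0.44, SE 0.23, 95% interval −0.07 to 0.96), which did not pass edgeR's quasi-likelihood test (adjusted p = 0.534). The scale of the values mattered for this gene. FPKM are scaled by the library total alone and leave out the TMM factor, which was 0.820 for control replicate 1. In FPKM, control libraries held 75.0, 58.9 and 52.9, TGF-β libraries 89.2, 87.0 and 84.8 and TGF-β + uridine libraries 81.3, 88.0 and 81.0. All 3 control libraries thus lay below all 6 treated ones. The share of all genes without overlap in FPKM was not determined. TGFB1 passed limma's test on log2(FPKM + 1), low genes left out (mean FPKM under 0.5) (log2 fold change 0.49, adjusted p = 0.0366) and edgeR's quasi-likelihood test without control replicate 1 (log2 fold change 0.77, adjusted p = 0.00499). It did not pass limma's test with low genes kept (adjusted p = 0.0723), and without control replicate 3 the edgeR log2 fold change was 0.24 (adjusted p = 0.567).

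The transcript of TGFB1 has 63.5% GC, against a median of 49.3% over 12319 genes tested, and within the control group its CPM stood in the order of the GC slope of the libraries. With the GC slope of each library as a covariate, the difference became 0.53 on the log2 scale (SE 0.05, edgeR adjusted p = 3.48e-06). After correction of each library for GC by a loess fit, control libraries held 189.7, 168 and 158 CPM and TGF-β libraries 251, 251 and 239 CPM, without overlap. TGFB1 lies at chr19:41301587-41353911 on the minus strand (GRCh38) and overlaps HNRNPUL1, CCDC97 and TMEM91 in the annotation. Since it is not stated whether reads were counted by strand, reads from the shared stretches cannot be told apart.

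TGFB2 was barely transcribed, with 5 to 18 reads per control library, 8 to 24 per TGF-β library and 10 to 26 per TGF-β + uridine library. These reads correspond to 0.119 to 0.378, 0.195 to 0.581 and 0.261 to 0.605 CPM, and the groups overlapped. The 95% interval of its log2 fold change with TGF-β ran from −0.42 to 2.26, which leaves room for a difference of up to 4.79-fold. TGFB3 had 6.34, 8.10 and 7.26 CPM in the control group, 5.36, 6.61 and 5.12 CPM in the TGF-β group and 6.39, 5.02 and 4.90 CPM in the TGF-β + uridine group. The lowest control library lay between the TGF-β libraries, and the log2 fold change of −0.35 (SE 0.20) did not pass edgeR's quasi-likelihood test (adjusted p = 0.613). TGFB3 overlaps IFT43 in the annotation, a gene that was also detected.

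TGFB1 supplied nearly all of the ligand transcripts per length. Its share of the summed FPKM of the 3 ligands was 96.9 ± 1.19% in the control group, 98.3 ± 0.253% in the TGF-β group and 98.2 ± 0.395% in the TGF-β + uridine group (SD, n = 3). TGFB3 held 3.05 ± 1.15%, 1.63 ± 0.233% and 1.68 ± 0.355% in the same order (SD, n = 3). The ranges of these shares overlapped between control and treated libraries, and the exact permutation test gave two-sided p = 0.2 for TGFB1 and for TGFB3 (TGF-β against control), with 0.1 the smallest p that 3 libraries against 3 allow.

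Among the signalling receptors, TGFBR2 encodes the type II receptor, which binds the ligand first. It had 11.8, 27.4 and 38.2 CPM in control replicates 1, 2 and 3, 20.4, 22.7 and 22.4 CPM in the TGF-β group and 27.3, 18.5 and 22.6 CPM in the TGF-β + uridine group. The control group alone spanned 3.22-fold, its 2 extremes lying on either side of every treated library. The log2 fold change with TGF-β was −0.24 (SE 0.35, 95% interval −1.04 to 0.55) and became 0.15 without control replicate 3. TGFBR1, the kinase that phosphorylates SMAD2 and SMAD3, showed the same order in the control group at a lower level, with 1.84, 3.41 and 6.56 CPM. It had 4.88, 5.79 and 5.65 CPM in the TGF-β group and 4.95, 3.19 and 8.15 CPM in the TGF-β + uridine group. Its log2 fold change of 0.46 (SE 0.46) did not pass edgeR's quasi-likelihood test (adjusted p = 0.910). Leaving out control replicate 1 gave 0.12, and leaving out control replicate 3 gave 1.05.

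TGFBR1 has a transcript GC content of 39.0% and TGFBR2 one of 47.4%, both below the median of the genes tested, and both were lowest in control replicate 1, the library with the steepest GC slope. With the GC slope as a covariate, the difference on the log2 scale was 0.61 for TGFBR1 (SE 0.16, edgeR adjusted p = 0.0142) and −0.14 for TGFBR2 (SE 0.13, edgeR adjusted p = 0.523). After the GC correction TGFBR1 stood at 3.66 ± 0.457 CPM in the control group and 5.62 ± 0.256 CPM in the TGF-β group (SD, n = 3), whereas TGFBR2 still spanned 14.4 to 35.2 CPM within the control group.

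The co-receptors had negative log2 fold changes with TGF-β that did not pass the test in the model of group alone. TGFBR3 encodes betaglycan, which presents TGF-β2 in particular to the type II receptor. It had 3.20, 7.55 and 14.5 CPM in control replicates 1, 2 and 3, 2.82, 3.24 and 4.55 CPM in the TGF-β group and 3.40, 2.20 and 4.72 CPM in the TGF-β + uridine group. Control replicates 2 and 3 lay above all 6 treated libraries and control replicate 1 lay among them. The mean was 2.38-fold lower in the TGF-β group (log2 fold change −1.25, SE 0.51, 95% interval −2.41 to −0.10), and did not pass edgeR's quasi-likelihood test (adjusted p = 0.341, unadjusted p = 0.0364). Without control replicate 1 the log2 fold change was −1.65 (edgeR adjusted p = 0.0247), and without control replicate 3 it was −0.61 (edgeR adjusted p = 0.529). With the GC slope as a covariate it was −1.05 (SE 0.17, edgeR adjusted p = 5.11e-04). The transcript has 43.8% GC.

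ENG encodes endoglin, a co-receptor best known from endothelial cells and also carried by stellate cells and fibroblasts. It had 123, 91.7 and 79.0 CPM in control replicates 1, 2 and 3, 84.0, 73.9 and 80.2 CPM in the TGF-β group and 85.4, 95.99 and 78.9 CPM in the TGF-β + uridine group, so that the groups overlapped. Expression was 1.23-fold lower with TGF-β (log2 fold change −0.30, SE 0.16, edgeR adjusted p = 0.562). Leaving out control replicate 1, the highest library, gave −0.11 (edgeR adjusted p = 0.537). In FPKM all 3 control libraries (29.6, 28.0 and 26.9) lay above the TGF-β libraries (24.0, 21.7 and 23.8), again without a share of all genes to set beside it. The same limma test gave a log2 fold change of −0.27 (adjusted p = 0.0287). With the GC slope as a covariate it stood at −0.26 (SE 0.05, edgeR adjusted p = 0.00129). The transcript has 63.3% GC, close to that of TGFB1. The endothelial markers PECAM1, CDH5, VWF and TIE1 had at most 114, 45, 13 and 5 reads in a library, against at least 3054 reads of ENG. CDH5 was called lower with TGF-β, from 0.641 ± 0.386 to 0.0411 ± 0.0374 CPM (SD, n = 3, edgeR adjusted p = 0.0314), whereas PECAM1 stood at 1.14 ± 0.324 and 2.15 ± 0.490 CPM (edgeR adjusted p = 0.168). The part of endothelial markers in the values of ENG was not tested.

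**Figure D2:**
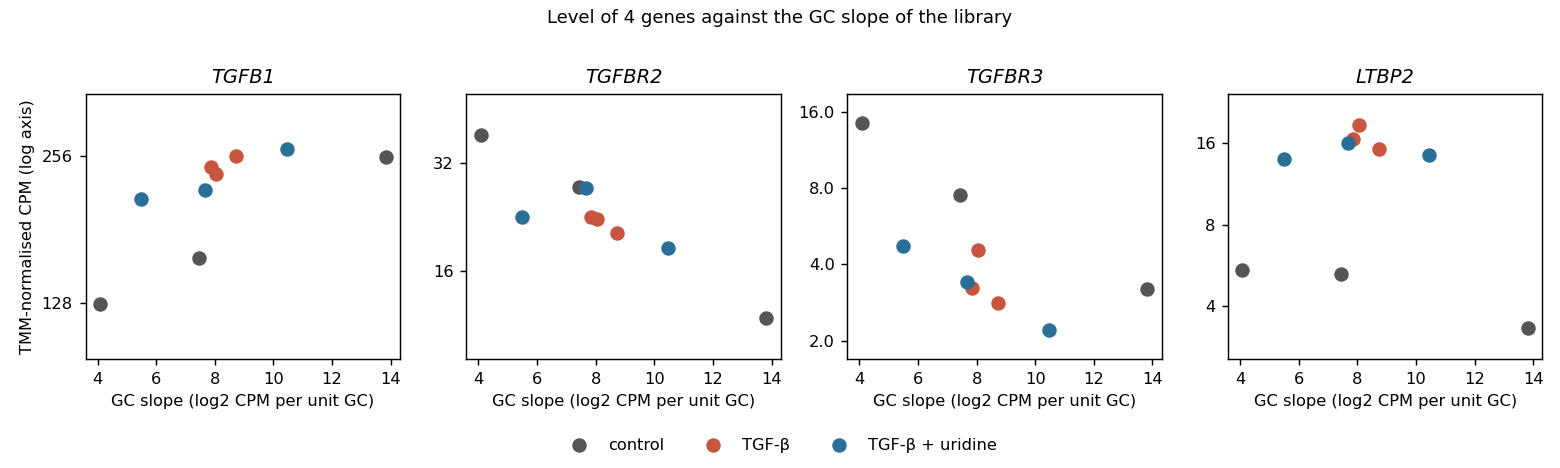
TMM-normalised CPM (log axis) of 4 genes in each of the 9 libraries against the slope of log2 CPM on transcript GC content in that library; each point is a library, coloured by group. Control replicate 1, at the right of each panel (slope 13.8), holds 255 CPM of TGFB1 and 11.8 CPM of TGFBR2. For LTBP2 every treated library lies above every control library. The slopes of control replicates 1 and 3 (13.8 and 4.08) lie outside the range of the treated libraries (5.49 to 10.5).

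LTBP2 encodes a fibrillin-like matrix protein of elastic fibres and microfibrils that, unlike LTBP1 and LTBP3, is not known to bind the latent complex covalently. It had 3.32, 5.26 and 5.45 CPM in the control group (112, 221 and 260 reads), 15.2, 16.6 and 18.7 CPM in the TGF-β group (604, 684 and 767 reads) and 16.0, 14.5 and 13.9 CPM in the TGF-β + uridine group (686, 555 and 616 reads). Every treated library lay above every control library. The TGF-β group was 3.59-fold higher than control (log2 fold change 1.84, SE 0.21, 95% interval 1.37 to 2.31, edgeR adjusted p = 0.00154), and the exact permutation test gave two-sided p = 0.1, the smallest that the design allows. The call was made in all 22 alternative settings, in which the log2 fold change ran from 0.91 (limma on log2(FPKM + 1), where the pseudocount is close to the level of the gene) to 1.97 and the adjusted p reached 0.0184 at most. The GC slope as a covariate left the value at 1.85 (SE 0.13, edgeR adjusted p = 2.58e-07). LTBP2 lies at chr14:74498170-74612378 on the minus strand (GRCh38), and its transcript has 57.2% GC.

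LTBP1 and LTBP3 gave log2 fold changes near 0. LTBP1, a main carrier of latent TGF-β, had 15.2, 21.5 and 23.4 CPM in the control group, 21.8, 19.2 and 21.3 CPM in the TGF-β group and 22.9, 17.5 and 20.8 CPM in the TGF-β + uridine group. Its log2 fold change with TGF-β was 0.05 (95% interval −0.36 to 0.46, edgeR adjusted p = 0.998). LTBP3, which also carries latent TGF-β, had 28.4, 24.9 and 26.2 CPM in the control group, 28.8, 26.2 and 29.5 CPM in the TGF-β group and 33.4, 32.0 and 31.0 CPM in the TGF-β + uridine group. Its log2 fold change with TGF-β was 0.09 (95% interval −0.15 to 0.33, edgeR adjusted p = 0.945). For both genes the interval leaves out a change of the size seen in LTBP2. LTBP4, the remaining family member, gave 0.20 on the log2 scale (edgeR adjusted p = 0.792).

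The stretches upstream of the transcription start of LTBP2, of its relative LTBP1 and of TGFB1 are given here, since LTBP2 was called in the model of group alone and the other two were not. They come from RefSeq (GRCh38.p14), read 5′ to 3′ on the strand of the gene, and that of LTBP2 was shortened to the bases that lie outside the gene in both RefSeq and GENCODE. Capitals mark 4 motifs searched on both strands. The SMAD-binding core was spelled CAGAC. The AP-1 site was spelled TGANTCA. The CRE was spelled TGACGTCA. The GC box was spelled GGGCGG.
LTBP2, chr14:74612379-74612487, minus strand: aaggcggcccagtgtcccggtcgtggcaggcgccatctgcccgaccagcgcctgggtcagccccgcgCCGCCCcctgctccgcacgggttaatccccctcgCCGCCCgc
LTBP1, chr2:32946703-32946952, plus strand: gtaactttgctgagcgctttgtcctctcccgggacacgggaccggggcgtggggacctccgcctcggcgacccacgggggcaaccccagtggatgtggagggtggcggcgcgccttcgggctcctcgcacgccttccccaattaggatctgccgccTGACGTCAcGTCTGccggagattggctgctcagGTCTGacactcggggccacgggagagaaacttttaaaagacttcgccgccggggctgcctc
TGFB1, chr19:41353923-41354172, minus strand: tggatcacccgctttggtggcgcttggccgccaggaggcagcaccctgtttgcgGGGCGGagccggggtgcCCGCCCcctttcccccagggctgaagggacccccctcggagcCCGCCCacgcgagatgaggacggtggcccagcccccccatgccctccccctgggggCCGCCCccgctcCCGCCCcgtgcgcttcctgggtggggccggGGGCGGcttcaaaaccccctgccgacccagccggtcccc

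The 109 bases of LTBP2 hold 2 GC boxes and none of the other motifs, and the whole 250-base window of LTBP2 likewise holds no SMAD-binding core, AP-1 site or CRE. LTBP1 has 3 windows, of which 3 hold the SMAD-binding core and 1 holds a CRE. The 1 given here is the one with the CRE, and it holds 1 CRE and 2 SMAD-binding cores. The window of TGFB1 holds 6 GC boxes. Among 35116 RefSeq windows of 250 bases, 38.0% hold the SMAD-binding core, 6.57% the AP-1 site, 1.65% the CRE and 42.6% the GC box. Of the 10 genes, TGFB2, TGFB3, TGFBR1 and LTBP1 hold the SMAD-binding core in at least 1 window and only LTBP1 holds a CRE. These are matches of letters in a short window and say nothing of binding.

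The share of LTBP2 among the LTBP transcripts was higher in each treated library than in each control library. Of the summed FPKM of LTBP1, LTBP2 and LTBP3, LTBP2 held 4.45%, 6.74% and 6.57% in the control libraries, 15.9%, 18.6% and 18.7% in the TGF-β libraries and 15.0%, 15.2% and 14.3% in the TGF-β + uridine libraries. The 3 groups did not overlap, with the TGF-β + uridine libraries between the control and the TGF-β libraries. The means were 5.92 ± 1.28%, 17.8 ± 1.59% and 14.9 ± 0.476% (SD, n = 3), and the exact permutation test gave two-sided p = 0.1 for each pair of groups (0.36 after Benjamini-Hochberg adjustment over 18 tests of shares). LTBP3 held the largest share in each group, with 61.7 ± 6.73%, 54.3 ± 0.635% and 59.0 ± 2.09% (SD, n = 3). Its share in the TGF-β libraries (53.8 to 55.0%) lay below that in the control libraries (57.5 to 69.5%) and the TGF-β + uridine libraries (57.4 to 61.4%) without overlap, with the same p of 0.1 by the exact permutation test for each of these pairs (0.36 after adjustment), whereas the control and TGF-β + uridine libraries overlapped. The level of LTBP3 itself was 26.5 ± 1.77 CPM in the control group and 28.2 ± 1.73 CPM in the TGF-β group (SD, n = 3). These shares were not corrected for GC. LTBP3 has a transcript GC content of 67.8%, and its share was highest in control replicate 1 (69.5%), the library with the steepest GC slope. The part of GC content in the shares was not tested. The summed FPKM of the 3 genes was 9.003 ± 1.99 in the control group, 10.6 ± 0.683 in the TGF-β group and 11.5 ± 1.28 in the TGF-β + uridine group (SD, n = 3).

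**Figure D3:**
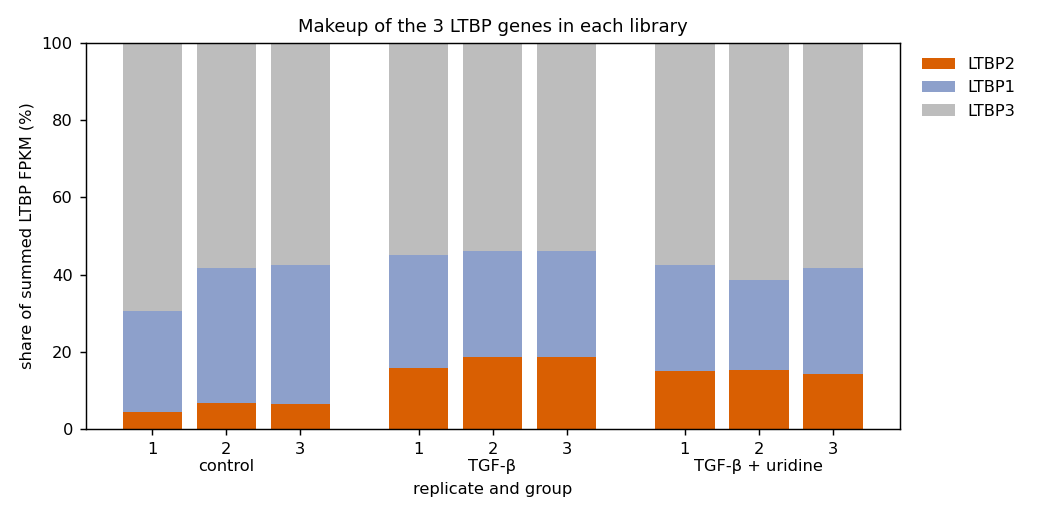
Share of the summed FPKM of LTBP1, LTBP2 and LTBP3 held by each gene (%), 1 stacked bar per library, by group and replicate. The LTBP2 segment spans 4.45% to 6.74% in the control libraries, 15.9% to 18.7% with TGF-β and 14.3% to 15.2% with TGF-β + uridine.

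The addition of uridine to TGF-β was compared with TGF-β alone. By edgeR's quasi-likelihood test 0 of the 10 genes were called, beside 0.0448% of all genes tested. An unadjusted p under 0.05 in this test was found for 0 of the 10, beside 1177 of all 13384 genes tested. DESeq2 also called 0 of the 10, beside 1.79% of all genes tested. Limma called 0 of the 9 that passed its filter on low FPKM, which left out TGFB2, beside 3.89% of all genes with a pseudocount of 1 and 3.81% with 0.1, and 0 of the 10 without the filter, beside 1.42%. A count of 0 among so few genes lies near each of these shares. Their median log2 fold change was −0.01, against 0.02 for all genes. LTBP2 was 1.14-fold lower in the TGF-β + uridine group (log2 fold change −0.18, SE 0.20, 95% interval −0.64 to 0.27, edgeR adjusted p = 0.929), with the libraries of both groups overlapping. TGFB1 had a log2 fold change of −0.09 (95% interval −0.60 to 0.42). LTBP3 was the only gene whose CPM did not overlap between these groups (1 of 10, beside 25.6% of all genes tested), every TGF-β + uridine library lying above every TGF-β library. The difference was 0.19 on the log2 scale (SE 0.11, 95% interval −0.05 to 0.43, edgeR adjusted p = 0.706). After the GC correction its TGF-β + uridine libraries (34.9, 28.9 and 32.8 CPM) overlapped with its TGF-β libraries (28.5, 27.5 and 30.8 CPM). Conversely, TGFB1 (225.7, 238.7 and 219.8 CPM, against 251.1, 250.6 and 238.9 CPM with TGF-β alone) and ENG (88.5, 87.0 and 83.2 CPM, against 82.4, 76.2 and 81.7 CPM) no longer overlapped after it, which made 2 of 10 beside 29.6% of all genes tested. The intervals of the low or variable genes were wide, and for TGFBR1 the log2 fold change lay anywhere between −1.05 and 1.05.

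The TGF-β + uridine group was also compared with the control group, which it shares with the first comparison. LTBP2 was again the gene called (1 of 10, beside 5.33% of all genes tested), being 3.15-fold higher than control (log2 fold change 1.66, SE 0.21, 95% interval 1.19 to 2.13, edgeR adjusted p = 0.00242). It was called in all 22 alternative settings, with log2 fold changes of 0.81 to 1.78 and adjusted p-values up to 0.0389. LTBP2 and LTBP3 did not overlap between these groups (2 of 10, beside 19.7% of all genes tested), although LTBP3 overlapped after the GC correction. After it, TGFB1, TGFB3, TGFBR1, TGFBR3, ENG and LTBP2 did not overlap with control (6 of 10, beside 27.9% of all genes tested), and the same 6 did not in the TGF-β group (beside 25%). LTBP3 was 1.21-fold higher (log2 fold change 0.28, SE 0.11, edgeR unadjusted p = 0.0276 and adjusted p = 0.203). TGFBR3 was 2.45-fold lower (log2 fold change −1.29, SE 0.51, edgeR adjusted p = 0.222), with −0.65 when control replicate 3 was left out (adjusted p = 0.431) and −1.70 when control replicate 1 was (adjusted p = 0.0145). TGFB1 was 1.28-fold higher (log2 fold change 0.35, SE 0.23, edgeR adjusted p = 0.524), with 0.67 when control replicate 1 was left out (adjusted p = 0.00808) and 0.16 when control replicate 3 was (adjusted p = 0.672). Over the 10 genes the median log2 fold change was 0.15, against −0.01 for all genes tested.

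With the GC slope of each library as a covariate, more of the 10 genes passed edgeR's quasi-likelihood test, as did more of all genes. In the TGF-β against control comparison, 5 of the 10 were called, beside 20.3% of all genes tested, namely TGFB1, TGFBR1 and LTBP2 as higher and TGFBR3 and ENG as lower. TGFBR3 did not pass the test with loess offsets (log2 fold change −1.18, against −1.05 with the covariate, edgeR adjusted p = 0.0542). In the TGF-β + uridine against control comparison, 5 of the 10 were called, beside 31.1% of all genes tested. These were TGFB1 (log2 fold change 0.46), TGFBR1 (0.46), LTBP2 (1.65) and LTBP3 (0.29) as higher and TGFBR3 (−1.23) as lower. TGFBR1 did not pass the test with the block added (log2 fold change 0.46, edgeR adjusted p = 0.0552) or with loess offsets (0.40, adjusted p = 0.140), nor did LTBP3 with loess offsets (0.28, adjusted p = 0.334). Between the TGF-β + uridine and TGF-β groups, ENG alone of the 10 was called, beside 19.1% of all genes tested, being 1.11-fold higher in the TGF-β + uridine group (log2 fold change 0.15, SE 0.05, edgeR adjusted p = 0.0460). ENG did not pass the test with the replicate block added (log2 fold change 0.15, edgeR adjusted p = 0.0745) or with loess offsets for GC in place of the covariate (0.11, adjusted p = 0.480). Each call had the direction of the model of group alone. The part of GC content in the values of the control group was not tested apart from this fit and the GC correction.

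**Figure D4:**
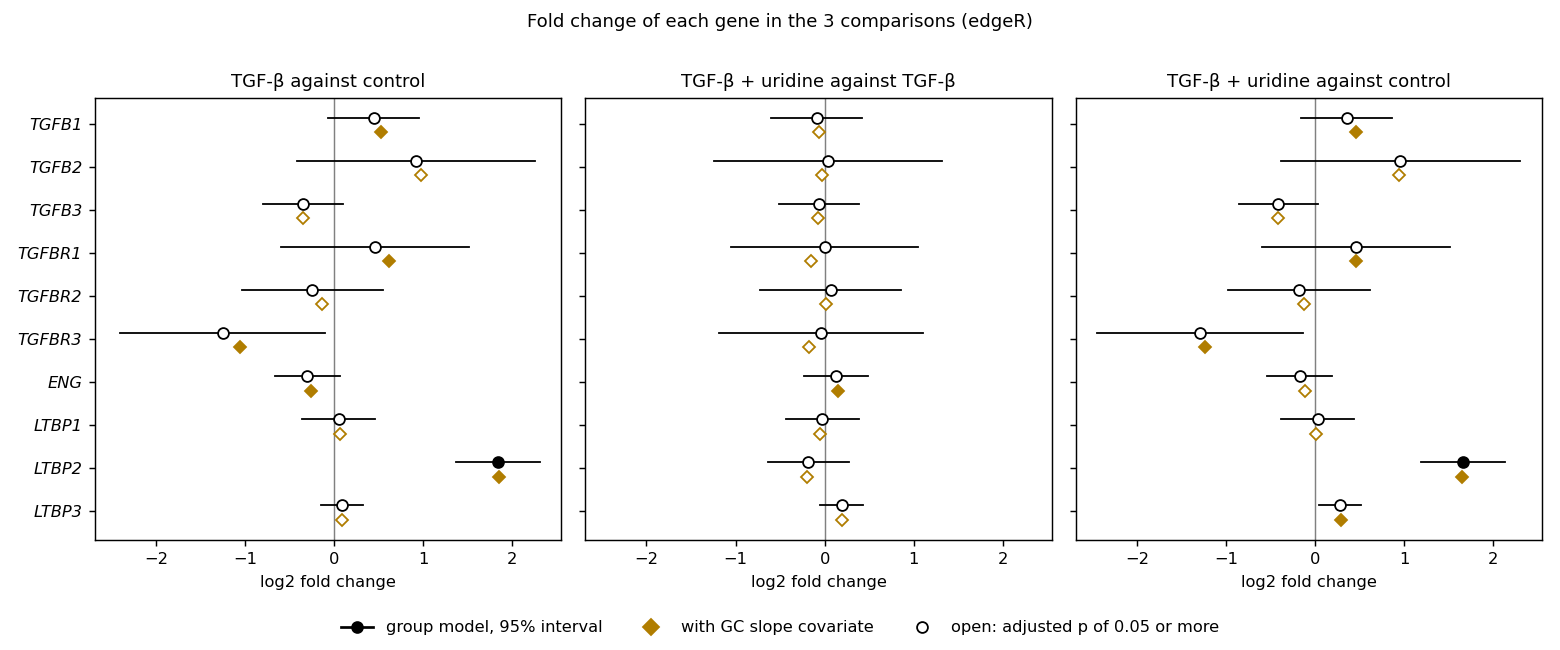
Log2 fold change of each of the 10 genes in the 3 comparisons (edgeR); circles with 95% intervals are from the model of group alone, diamonds from the fit with the GC slope as a covariate, and filled symbols have an adjusted p under 0.05. Only LTBP2 is filled in the model of group alone, at 1.84 and 1.66, while the diamonds of 5, 1 and 5 genes are filled in the 3 comparisons.

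Among known responders of the pathway, PMEPA1, a feedback inhibitor, rose from 39.1 ± 2.67 CPM in the control group to 235 ± 4.39 CPM in the TGF-β group (SD, n = 3, log2 fold change 2.59, edgeR adjusted p = 3.50e-06). SMAD7, which directs the type I receptor to degradation, was 1.69-fold higher with TGF-β (edgeR adjusted p = 0.0720) and 1.97-fold higher in the TGF-β + uridine group than in the control group (edgeR adjusted p = 0.0185). Of a list of 20 TGF-β response genes, 18 were tested. Of these, 14 rose and 0 fell with TGF-β, beside 3.38% of all genes called in either direction. The median log2 fold change of the 18 was 1.59, against −0.05 for all genes tested. This list and those of the next paragraphs were chosen with earlier results of these data known. Counts of genes called from them are a description only. With uridine added, 0 of the 18 were called against TGF-β alone, beside 0.0448% of all genes (median −0.08, against 0.02).

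Of 24 genes that store or activate latent TGF-β, or process its matrix, 19 were tested, of which 8 rose and 0 fell in the TGF-β group, beside 3.38% of all genes called (median log2 fold change 0.72, against −0.05). The 5 of these 8 with the smallest adjusted p were PLAU (log2 fold change 2.28), whose product urokinase activates plasmin, MMP2 (1.34), a gelatinase, FN1 (1.56), the fibronectin onto which latent complexes are laid down, THBS1 (1.96), whose product thrombospondin 1 can activate latent TGF-β, and PLAT (0.86), the tissue plasminogen activator. The edgeR adjusted p-values of these 5 lay between 2.77e-05 and 0.00834. PLAU fell by 1.18 on the log2 scale with uridine (edgeR adjusted p = 0.0207) and was the only one of the 19 called in that comparison, beside 0.0448% of all genes. The call was lost with the replicate block and in 7 of 9 fits with 1 library left out (control replicate 2 or any library of the TGF-β and TGF-β + uridine groups), all of which called 0 genes.

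Of 25 receptor partners and intracellular signalling genes, all 25 were tested, and 2 rose and 1 fell with TGF-β, beside 3.38% of all genes called (median log2 fold change 0.01, against −0.05). PMEPA1 and HTRA1 (log2 fold change 0.89), a secreted protease, rose. DAB2, an adaptor that links the receptors to SMAD proteins and to endocytosis, fell by 1.54 on the log2 scale (edgeR adjusted p = 7.69e-04). With uridine added, 0 of the 25 were called against TGF-β alone, beside 0.0448% of all genes.

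The genes whose log2 CPM was most like that of LTBP2 over the 9 libraries, among the 9991 tested genes whose log2 CPM averaged 1 or more, were FN1 (Pearson's r = 0.996), JAG1 (r = 0.992), which encodes a Notch ligand, and the long non-coding RNA LINC00707 (r = 0.991). These correlations are given as a description, since the 9 points share the 3 groups and their libraries. FN1 stood at 67.7 ± 13.8, 200.035 ± 10.5 and 174 ± 9.68 CPM in the control, TGF-β and TGF-β + uridine groups (SD, n = 3). JAG1 stood at 3.45 ± 1.22, 13.9 ± 1.21 and 12.3 ± 1.42 CPM in the same order (SD, n = 3). Like LTBP2, both were low in the control libraries, highest on average in the TGF-β libraries and a little lower on average in the TGF-β + uridine libraries.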

How the data were processed

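RNA of 9 LX-2 libraries, 3 per group, was analysed. The authors deposited whole-number counts of reads per gene symbol and FPKM values of the same genes. The submitters' processing notes name fastp, HISAT2, HTSeq and R 3.2.0, and the build GRCh38.p13. Dividing counts by FPKM and by the library total gave 1 length per gene in all libraries.

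The main test was the two-sided quasi-likelihood test of edgeR 4.0.16 (R 4.3.3; glmQLFit, glmQLFTest) after filterByExpr and TMM. A single model of group was fitted to all 9 libraries, with a common biological coefficient of variation of 0.289. Benjamini-Hochberg adjustment ran over 13384 genes, and an adjusted p under 0.05 was called. The methods of the study name no test for the sequencing data. Shares of FPKM were compared by an exact permutation test. Among 200 genes changed 4-fold in simulated counts for the TGF-β comparison, edgeR recovered 89% (10 false calls, 13198 genes). This change is larger than that estimated for any of the 10 genes. No difference in GC slope between libraries was built in, and the recovery of smaller changes was not tested.

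Alternatives were DESeq2 1.42.0, limma 3.58.1 on log2(FPKM + 1) or log2(FPKM + 0.1), RLE and upper-quartile factors, other filters, a fit of only the groups compared, the replicate number as a block, a GC slope covariate, each library left out, and, added after the data had been seen, loess offsets for GC (span 0.3). GC content and coordinates come from GENCODE v29, matched by symbol for 92.0% of tested genes. The tested genes without a match were left uncorrected by the loess fit. They are included in the shares of all genes given after the GC correction. The 10 genes, the gene lists and the tests were chosen with earlier results of these data known. All 10 genes are named, with at most 5 genes per wider list by smallest adjusted p, plus PMEPA1 and SMAD7, and the 3 genes most correlated with each called gene. The result of 1 gene within this rule is not reported here. Replicate numbers were not treated as pairs.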

Additional observations from a re-analysis of the deposited data

How the results depend on the processing

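LTBP2 kept its direction and its call in all 22 settings in both comparisons with the control group. The number of the 10 genes called depended on the processing. For TGF-β against control it was 3 of 9 by limma on log2(FPKM + 1) or log2(FPKM + 0.1) with the filter, which left out TGFB2 (as did a minimum of 10 counts in every library), 2 by limma without the filter, 5 with the GC slope covariate, with or without the replicate block, and 4 with loess offsets for GC. Of all genes, these fits called 8.1%, 8.0%, 3.83%, 20.3%, 17.5% and 8.11% in that order, beside 3.38% in the model of group. For TGF-β + uridine against control these counts were 2 of 9 by limma with the filter, 5 with the covariate, with or without the block (TGFBR1 with the covariate alone and TGFB3 with both), and 3 with loess offsets. Of all genes, these called 14.3% and 14.1% (limma), 31.1%, 28.1% and 13.3%. For TGF-β + uridine against TGF-β the covariate gave 1 beside 19.1% of all genes, with the cause not tested for any of these. With 1 library left out, the number called ran from 1 to 3 in both comparisons with the control group, the 3 genes being LTBP2, TGFB1 and TGFBR3 without control replicate 1, a fit that called 7.93% and 17.6% of all genes. TGFB3 was called only with the covariate and the block together (log2 fold change with TGF-β + uridine against control, edgeR adjusted p = 0.0395). The replicate block alone called LTBP2, with log2 fold changes of 1.86 and 1.69 against control, and left the number of the 10 genes at 1, 0 and 1. It moved the genes called overall from 453 to 314, from 6 to 0 and from 714 to 437. Same-numbered libraries had correlations of −0.21 to 0.56, not all above 0.1, and the libraries were not treated as pairs.

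Values near 0 changed sign. For TGF-β + uridine against TGF-β, the log2 fold change of TGFBR1 became 0.021 with upper-quartile factors, 0.0062 with at least 10 counts in every library, 0.0012 in the fit of the 2 groups and 0.0067 by limma on log2(FPKM + 1), with or without the filter. That of LTBP1 became 0.0051 by limma on log2(FPKM + 1), with or without the filter, and 0.0025 on log2(FPKM + 0.1). That of TGFB2 became −0.036 with the replicate block, −0.028 with the GC slope covariate, −0.053 with both and −0.14 with loess offsets, and that of TGFBR2 became −0.0057 with the covariate and the block. For TGF-β + uridine against control, LTBP1 became −0.0046 with the covariate and the block and −0.031 with loess offsets.

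With 1 library left out, log2 fold changes for TGF-β against control ran from −0.12 to 0.18 for LTBP1 and from −0.60 to 0.15 for TGFBR2. For TGF-β + uridine against control they ran from −0.16 to 0.15 for LTBP1, from −0.54 to 0.22 for TGFBR2 and from −0.30 to 0.0039 for ENG. For TGF-β + uridine against TGF-β they ran from −0.12 to 0.074 for LTBP1, from −0.20 to 0.054 for TGFB3, from −0.42 to 0.27 for TGFBR1, from −0.32 to 0.31 for TGFB2, from −0.34 to 0.20 for TGFBR3 and from −0.083 to 0.19 for TGFBR2. Differences in share, in percentage points, ran from −0.250 to 0.145 for TGFB1, from −0.011 to 0.037 for TGFB2 and from −0.141 to 0.214 for TGFB3 between the TGF-β + uridine and TGF-β groups, from −0.0013 to 0.048 for TGFB2 between TGF-β and control, and from −4.82 to 1.16 for LTBP3 between TGF-β + uridine and control.

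The 3 libraries per group, the spread of control replicates 1 and 3 and the few reads of TGFB2 limit the precision. The limit for a count of 0 covers counting error only.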
